A study of Mus musculus with 6 samples.

Results

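The enzymes described here are 9 genes that handle foreign compounds and are best known from tissues facing inhaled or ingested chemicals: Cyp2a5, Cyp2f2, Cyp2g1, Cyp1a2, Cbr2, Ces3, Ugt2a2, Gstm2 and Inmt. They were chosen by symbol among the 899 probes that the study named, out of 25697 probes on the array, and each of the 9 had 1 named probe. The study named a probe because the signals of these same arrays differed between CRST and CON or between CRST+RS5 and CRST, so those differences chose the genes and are given here as a description with no test. Their signals stood out on 1 array, CRST+RS5 replicate 2, where all 9 were highest and lay a median of 2.51 log2 units above the CON mean. The other CRST+RS5 array stood at a median of 0.02, and on both CRST+RS5 arrays only Gstm2 and Cyp1a2 were above all CON and CRST arrays, Cyp1a2 undetected on replicate 1.

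The study asked how a daily restraint of 5 min, repeated after chronic stress, changed expression in the prelimbic cortex (PL), a part of the medial prefrontal cortex. Male C57BL/6 mice aged 3 months were left unstressed (CON), restrained for 2 h a day over 14 days (CRST), or given that treatment and afterwards restrained for 5 min a day over 14 days (CRST+RS5). Tissue was taken on post-stress day 22. Each group had 2 bead arrays, each hybridised with RNA pooled from the PL of 6 to 7 mice, so the spread between arrays is a spread between pools and 2 arrays a group limit every value below. No allele or transgene was involved, and nothing given to the CON mice is recorded in the labels.

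Foreign compounds are usually cleared in steps. Cytochrome P450 enzymes, carbonyl reductases and carboxylesterases first oxidise, reduce or hydrolyse a compound, and transferases then attach glucuronic acid, glutathione or a methyl group so that it can be excreted. The supporting cells and Bowman's glands of the olfactory mucosa hold such enzymes at levels that rival those of the liver, where they clear odorants and inhaled chemicals, and Cyp2a5, Cyp2g1 and Ugt2a2 are known from that tissue. Gstm2, Cbr2 and Inmt are also known from other organs, so the group is called here by what its enzymes do.

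All 9 probes matched a RefSeq accession of the assembly GRCm38.p6, in which Ces3 is now called Ces1d. Of the P450 genes, Cyp2g1, Cyp2a5 and Cyp2f2 lie on chromosome 7 within a run of 5 neighbouring protein-coding genes that are all Cyp2 genes (Cyp2g1, Cyp2a5, Cyp2a22, Cyp2a12 and Cyp2f2). The other 6 are spread over the genome, most of them beside a relative: Cyp1a2 next to Cyp1a1 on chromosome 9, Ugt2a2 next to Ugt2a1 on chromosome 5, Gstm2 between Gstm3 and Gstm1 on chromosome 3, Ces1d between Ces1c and Ces1e on chromosome 8, Cbr2 next to Dcxr on chromosome 11, and Inmt on chromosome 6. Probe sequences were not used here, so signal from such close relatives cannot be told apart from that of the named gene. This holds most for Ugt2a2, which shares exons with Ugt2a1, and for Cyp2a5, which has a near-identical copy in Cyp2a4.

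Promoter sequences are shown as a description, and no link between them and the signals was tested. RefSeq promoter windows were at hand for 7 of the 9 (not for Cyp2g1 and Ces1d), and the 250 bases before the annotated start were read on the gene's strand, 5′ to 3′. The windows printed are Cyp2a5 at chr7:26835089-26835338 on the plus strand, Cyp2a4 at chr7:26306942-26307191 on the plus strand, Cyp1a2 at chr9:57683656-57683905 on the minus strand, Inmt at chr6:55174991-55175240 on the minus strand, and Gstm2 at chr3:107986421-107986670 on the minus strand. Cyp2a5 is the enzyme with the widest span over the arrays, Cyp2a4 is its copy, Cyp1a2 and Inmt are members with a TATA box motif, and Gstm2 is the member with the smallest difference between the CRST+RS5 arrays. Capitals mark TATAAA on the gene's strand.
Cyp2a5: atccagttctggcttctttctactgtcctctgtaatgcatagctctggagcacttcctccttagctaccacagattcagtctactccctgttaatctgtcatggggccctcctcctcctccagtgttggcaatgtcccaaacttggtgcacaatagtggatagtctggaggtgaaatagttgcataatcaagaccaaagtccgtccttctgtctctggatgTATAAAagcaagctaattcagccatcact
Cyp2a4: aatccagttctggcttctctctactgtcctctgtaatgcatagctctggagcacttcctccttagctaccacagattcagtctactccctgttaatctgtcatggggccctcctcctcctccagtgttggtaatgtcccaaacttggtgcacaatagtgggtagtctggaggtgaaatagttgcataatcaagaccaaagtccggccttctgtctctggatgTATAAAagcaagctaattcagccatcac
Cyp1a2: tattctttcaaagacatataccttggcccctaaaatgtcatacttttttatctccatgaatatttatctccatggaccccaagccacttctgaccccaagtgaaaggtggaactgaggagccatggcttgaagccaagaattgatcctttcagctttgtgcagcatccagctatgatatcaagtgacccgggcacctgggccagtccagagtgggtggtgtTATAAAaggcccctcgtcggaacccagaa
Inmt: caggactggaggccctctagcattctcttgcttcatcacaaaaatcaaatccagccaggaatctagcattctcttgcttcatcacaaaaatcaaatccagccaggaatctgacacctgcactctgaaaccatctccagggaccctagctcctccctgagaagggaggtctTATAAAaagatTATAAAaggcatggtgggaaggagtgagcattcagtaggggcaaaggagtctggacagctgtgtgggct
Gstm2: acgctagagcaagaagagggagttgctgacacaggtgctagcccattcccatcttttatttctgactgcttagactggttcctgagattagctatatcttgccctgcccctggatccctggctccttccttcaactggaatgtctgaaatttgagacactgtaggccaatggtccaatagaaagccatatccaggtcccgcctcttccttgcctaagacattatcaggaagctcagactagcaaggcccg
Aligned without gaps at a shift of 1 base, the Cyp2a5 and Cyp2a4 windows were identical at 245 of 249 bases (98.4%). The motifs, chosen after the sequences had been seen, were searched on both strands. TATAAA was found in 4 of the 7 windows against 12.4% of 32851 RefSeq promoter windows of the same length. On the gene's own strand and starting 20 to 40 bases before the start it was found in 2 of 7 (Cyp2a5 and Cyp1a2, both at 29 bases) against 1.99%, while the copies in Inmt started 80 and 69 bases before it and the match in Ugt2a2 was on the other strand. The core of the xenobiotic response element, GCGTG, was in 0 of the 7 windows and in 28.2% of all windows. The glucocorticoid receptor half-site AGAACA was in 1 of 7, Ugt2a2, and in 16.1% of all. These matches describe letters in short windows.

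Signals are given as log2 of the deposited intensity after quantile normalization, and a probe is called detected on an array where the deposited detection p-value was under 0.05. Levels of different probes are not set against each other, since probes differ in how well they hybridise. A fold over an array where the probe was not detected is a ratio to a signal near background. All probes together gave similar readings on the 6 arrays, with 12645 to 13407 probes detected and a median signal of 185.6 to 230.0. Named cortical neuron markers, among them Fezf2 and Cux2, were detected in 11 or 12 of 12 cases on every array, as PL tissue would have. In bulk tissue, more cells of a type and more RNA per cell cannot be told apart.

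Cyp2a5, the coumarin 7-hydroxylase of the mouse, had the widest span. Its log2 signals were 7.33 and 8.02 on CON replicates 1 and 2, 7.42 and 7.53 on CRST, and 7.31 and 12.41 on CRST+RS5. In intensity units the same 6 arrays read 150.9, 276.7, 156.9, 206.5, 156.8 and 5130.5. The arrays near the bottom of this span, CON replicate 1 and CRST+RS5 replicate 1, were both undetected and have no order, and the highest array was 20.9-fold above the next, CON replicate 2. Cyp2a5 was detected on these highest 2 arrays alone, with a detection p-value of 0.00125 on CON replicate 2 and 0.247, 0.167, 0.0865 and 0.297 on the others.

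Cyp2f2, which activates naphthalene in airway club cells, read 7.25 and 7.58 on CON, 7.23 and 7.33 on CRST, and 7.43 and 10.66 on CRST+RS5. Detection was limited to CRST+RS5 replicate 2, which lay 8.49-fold above the next array. Cyp2g1, a P450 found in the olfactory mucosa, read 7.18 and 7.79 on CON, 7.06 and 7.26 on CRST, and 7.15 and 10.00 on CRST+RS5. Like Cyp2a5 it was detected on CON replicate 2 and CRST+RS5 replicate 2, and the gap between the highest array and the next was 4.63-fold. Cyp1a2, a P450 that oxidises caffeine and is induced through the aryl hydrocarbon receptor, read 7.20 and 7.06 on CON, 7.06 and 7.15 on CRST, and 7.35 and 8.40 on CRST+RS5. It was detected on its highest array alone and stood there 2.07-fold above CRST+RS5 replicate 1.

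The reductase and the esterase followed the same array. Cbr2, a carbonyl reductase, read 7.73 and 7.91 on CON, 7.78 and 7.72 on CRST, and 7.85 and 10.10 on CRST+RS5. All 6 arrays detected it, and 5 of them lay within 0.19 log2 units of each other, the narrowest span among the 9 enzymes, with the other array 4.56-fold above them. Ces3, a carboxylesterase that splits ester bonds of drugs and lipids, read 7.61 and 7.48 on CON, 7.24 and 7.47 on CRST, and 7.42 and 10.97 on CRST+RS5. It was detected on the last of these alone, at 10.3-fold above CON replicate 1, whose detection p-value of 0.0501 just missed the threshold.

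Of the 3 transferases, Ugt2a2, which attaches glucuronic acid, read 7.43 and 7.68 on CON, 7.22 and 7.46 on CRST, and 7.41 and 10.10 on CRST+RS5. It was detected on CON replicate 2 and on CRST+RS5 replicate 2, and the latter was 5.35-fold above the former. Inmt, which methylates tryptamine and other indoles, read 7.51 and 7.67 on CON, 7.39 and 7.80 on CRST, and 7.79 and 9.54 on CRST+RS5. It was detected on 4 arrays (CON replicate 2, CRST replicate 2 and both CRST+RS5 arrays), and its highest array was 3.34-fold above the next.

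Gstm2, a glutathione transferase of the mu class, had the CRST+RS5 arrays closest together. Its log2 signals were 8.90 and 9.36 on CON, 8.75 and 8.92 on CRST, and 9.61 and 10.19 on CRST+RS5, and it was detected on every array. Both CRST+RS5 arrays lay above all 4 of the others, as for Cyp1a2 by measured signal, though Cyp1a2 was undetected on replicate 1. The gap of 0.58 between the CRST+RS5 arrays, or 1.49-fold, was the smallest among the 9 enzymes. The other 5 arrays spanned 0.86 log2 units, the widest such span of the 9.

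**Figure D1:**
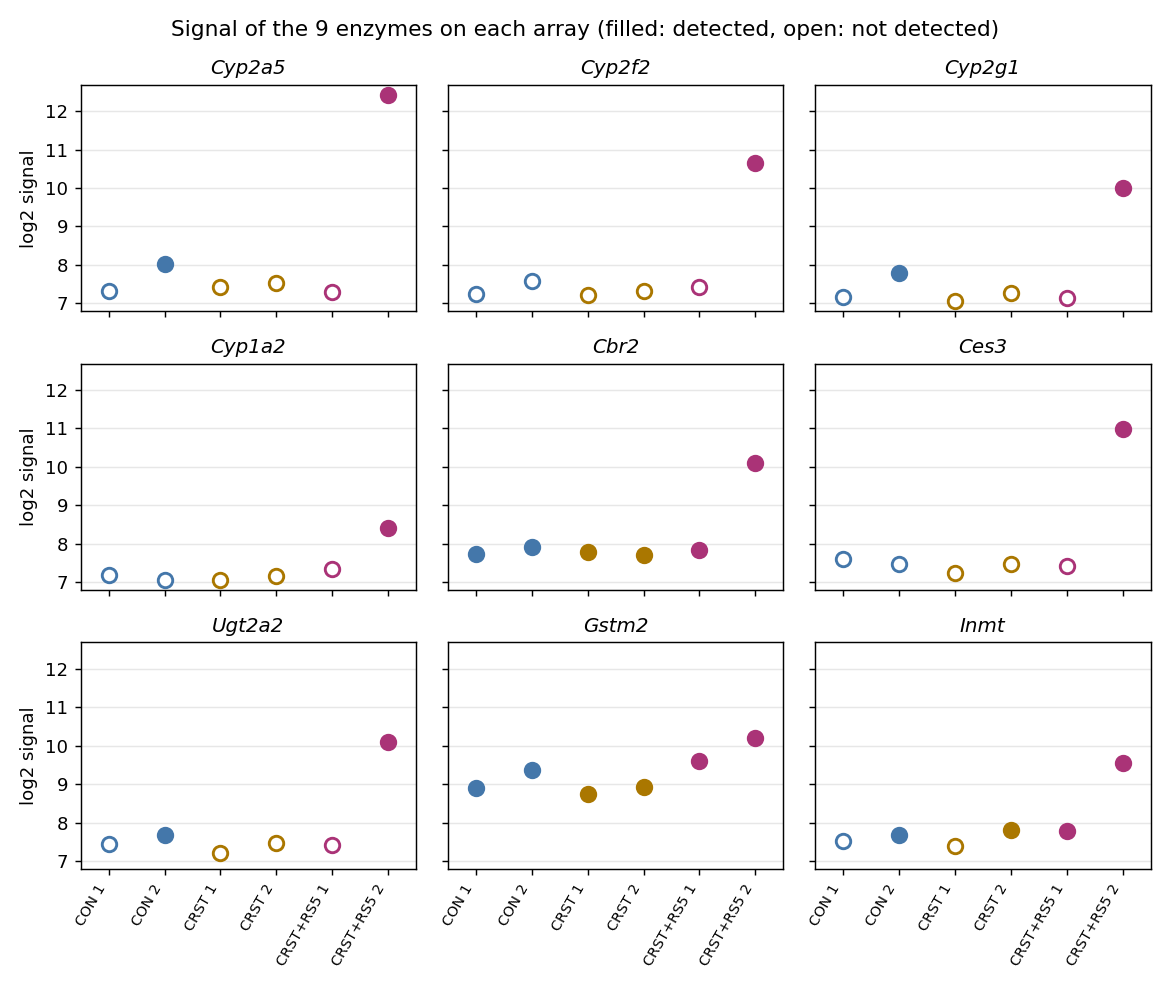
Log2 signal of each of the 9 enzymes (1 panel each) on the 6 arrays, 2 per group, with blue for CON, ochre for CRST and purple for CRST+RS5. Filled points were detected and open points were not, and in all 9 panels CRST+RS5 replicate 2 is the highest point, by 0.58 (Gstm2) to 4.39 (Cyp2a5) log2 units over the next.

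All 9 enzymes were highest on CRST+RS5 replicate 2, against 14.8% of all probes and 34.3% of the named probes. The difference between the CRST+RS5 arrays placed all 9 within the first 126 of the 25697 probes. Ranked from the most positive difference of replicate 2 over replicate 1, Cyp2a5 came 2nd at 5.10 log2 units (34.3-fold), Ces3 came 8th at 3.54 and Cyp2f2 10th at 3.23. Cyp2g1 (2.85), Ugt2a2 (2.68), Cbr2 (2.25) and Inmt (1.75) held ranks 11, 13, 19 and 26, Cyp1a2 (1.05) was at 57 and Gstm2 (0.58) at 126. These ranks describe an array pair that entered the choice of the genes.

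**Figure D2:**
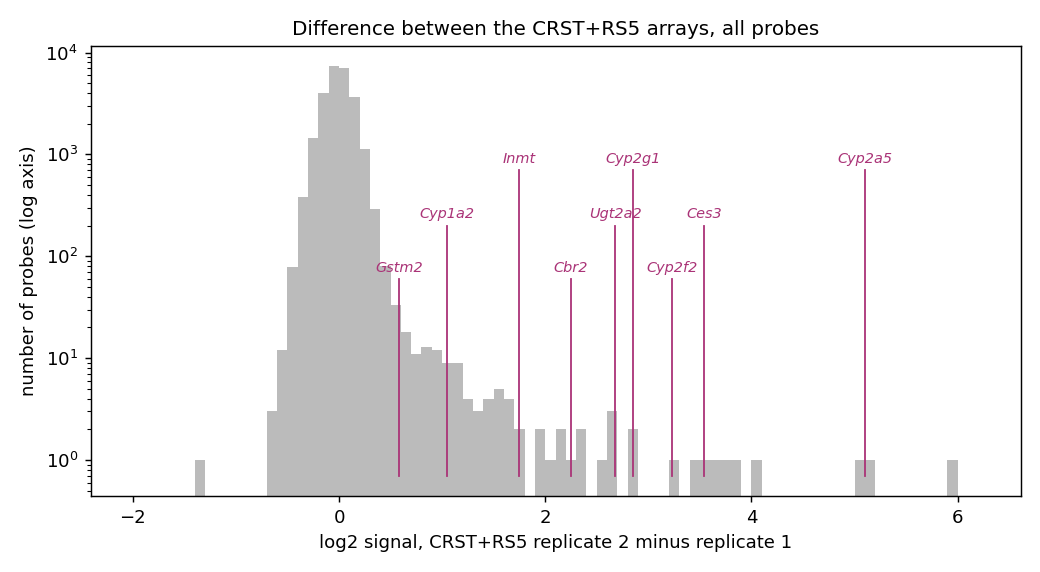
Histogram of the difference in log2 signal between the 2 CRST+RS5 arrays (replicate 2 minus replicate 1) over all 25697 probes, with the number of probes on a log axis. Vertical lines mark the 9 enzymes, which lie between 0.58 for Gstm2 and 5.10 for Cyp2a5, while most probes lie near 0.

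Few probes behaved this way on any array. On CRST+RS5 replicate 2, 53 probes (0.206% of all) were at least 1 log2 unit above every other array, 45 of them named, and 8 were among the 9 enzymes. At 2 log2 units or more there were 20 such probes, 16 of them named and 6 among the enzymes (Cyp2a5, Cyp2f2, Cyp2g1, Cbr2, Ces3 and Ugt2a2). By the same measure of 1 log2 unit, 6 probes stood out on CRST replicate 2, 1 on CRST+RS5 replicate 1 and 0 on the other 3 arrays, and none of these was an enzyme of the group. The enzymes were named by the study on these same arrays, so nothing is read from their number among these probes.

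By measured signal, a smaller pattern ran through the other 5 arrays. CON replicate 2 was the highest of them for 5 of the 9 enzymes (Cyp2a5, Cyp2f2, Cyp2g1, Cbr2 and Ugt2a2), against 16.9% of all probes and 10.0% of named probes. CRST+RS5 replicate 1 was the highest of the 5 for Cyp1a2 and Gstm2, CRST replicate 2 for Inmt and CON replicate 1 for Ces3. Cyp2f2, Cyp1a2 and Ces3 were undetected on all 5 of these arrays, so no order is read for them. The number of the 9 enzymes detected was 2 and 6 on CON replicates 1 and 2, 2 and 3 on CRST, and 3 and 9 on CRST+RS5. Over all probes, 13407 and 12952 (the latter 50.4%) were detected on CON replicates 1 and 2, and 12645 and 13209 (the latter 51.4%) on those of CRST+RS5, so probes in general did not share the higher count on CON replicate 2. CRST replicate 1 was the lowest array for Gstm2, at 8.75. It also read lowest for Cyp2f2, Cyp2g1, Ces3, Ugt2a2 and Inmt, but all of these were undetected there, so no order is read for them.

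The first question of the design was how CRST differed from CON. The members' differences were small, from -0.32 for Cyp2g1 to 0.01 for Inmt with a median of -0.19, beside a median of 0.00 over all probes. Cyp2g1 (7.16 ± 0.14 in CRST against 7.48 ± 0.43 in CON, mean ± SD, n = 2) and Gstm2 (8.83 ± 0.12 against 9.13 ± 0.33) were lower in CRST by at least the study's criterion of 1.2-fold, or 0.263 log2 units. That is 2 of 9 by measured signal, against 0.592% of all probes in that direction. Since the study named Cyp2g1 and Gstm2 on this contrast too, nothing is read from that count. By measured signal the CON and CRST arrays overlapped for 8 of the 9. For Ces3 (-0.19) both CRST readings lay below both CON readings, as for 14.7% of all probes. Ces3 was undetected on both CON and both CRST arrays, so no order is read from these readings. Cyp2g1 was not detected on either CRST array, and its CON mean lay below the lowest signal detected there (7.64), so no fold can be given for it. Both values past the criterion rested on CON replicate 2, without which Cyp2g1 stood at -0.02, Gstm2 at -0.06 and the median at -0.02, and both also missed it without CRST replicate 1, at -0.22 and -0.21.

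The second question was how CRST+RS5 differed from CRST, the contrast on which all 9 were named. By measured signal, undetected readings included, all 9 enzymes passed 1.2-fold upwards in CRST+RS5, against 2.04% of all probes counted the same way, with a median of 1.41 beside -0.007 over all probes. The SD of the CRST+RS5 pair was 3.61 for Cyp2a5 around a mean of 9.86, 2.28 for Cyp2f2 around 9.05, 2.51 for Ces3 around 9.19 and 0.41 for Gstm2 around 9.90 (n = 2 each). The difference from CRST was 2.38 for Cyp2a5, 1.77 for Cyp2f2, 1.84 for Ces3, 1.42 for Ugt2a2 and 1.41 for Cyp2g1, and for 7 of the 9, all but Cyp1a2 and Gstm2, it was smaller than the SD within the CRST+RS5 pair.

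Since 6 of the 9 were not detected on either CRST array, their folds are set against the lowest signal detected there. On that basis the mean of both CRST+RS5 arrays was 4.64-fold higher for Cyp2a5, 2.93-fold for Ces3 and 2.65-fold for Cyp2f2. For Ugt2a2 it was 2.17-fold, for Cyp2g1 1.9-fold and for Cyp1a2 1.18-fold. All 6 were also undetected on CRST+RS5 replicate 1, whose measured signal entered that mean. These folds are therefore not lower limits for the group. For Cyp1a2 the fold misses the criterion that its measured signal passed. The other 3 were measured in both groups, at 2.34-fold for Cbr2, 2.10-fold for Inmt and 2.09-fold for Gstm2. By measured signal the arrays of both groups did not overlap for Cyp2f2, Cyp1a2, Cbr2 and Gstm2, which is 4 of 9 against 16.6% of all probes. Cyp2f2 and Cyp1a2 were undetected on CRST+RS5 replicate 1 and on both CRST arrays, so those readings have no order. The genes were named on this contrast, so nothing is read from the count.

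Each CRST+RS5 array gave a different account. Replicate 2 alone lay a median of 2.76 above the CRST mean, from 1.30 for Cyp1a2 to 4.93 for Cyp2a5, and all 9 passed 1.2-fold, against 2.98% of all probes on that array alone. Replicate 1 alone lay a median of 0.10 above it, from -0.17 for Cyp2a5 to 0.78 for Gstm2, and only Gstm2 passed, at 1 of 9 against 2.93% of all probes. Cbr2 (0.10) and Inmt (0.20), both detected on replicate 1, lay below the criterion. By measured signal Cyp1a2 stood at 0.24, Cyp2f2 at 0.15, Ces3 and Ugt2a2 at 0.07, Cyp2g1 at -0.01 and Cyp2a5 at -0.17. These last enzymes were undetected on replicate 1 and on both CRST arrays, so no direction is read from their signs.

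**Figure D3:**
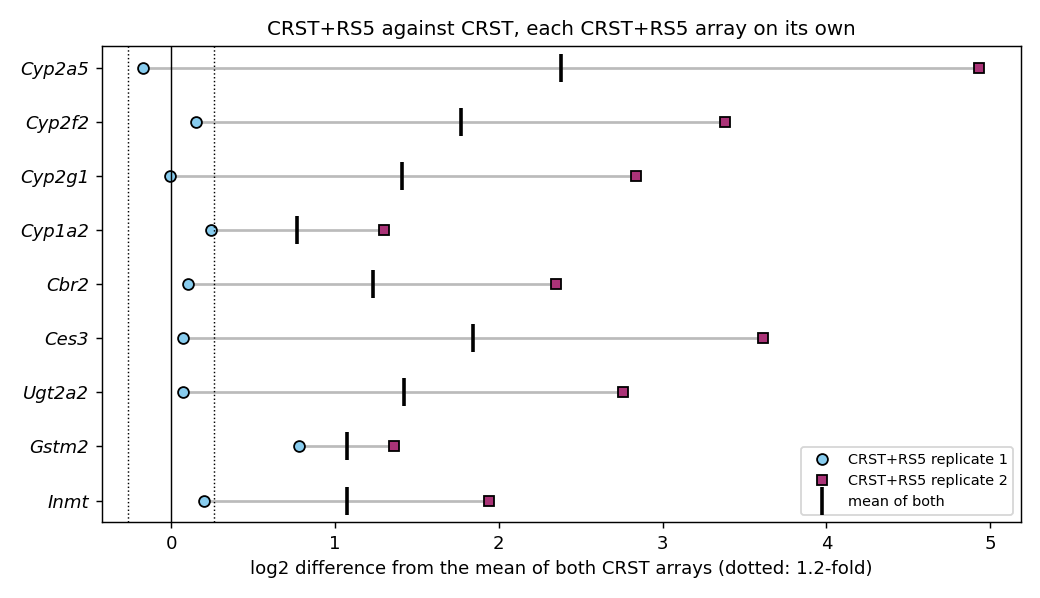
Log2 difference of each CRST+RS5 array from the mean of both CRST arrays for the 9 enzymes, with circles for replicate 1, squares for replicate 2, vertical bars for their mean and dotted lines at 1.2-fold. The circles lie between -0.17 and 0.78 and only that of Gstm2 is past 1.2-fold, while the squares lie between 1.30 and 4.93.

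CRST+RS5 against CON uses the same CRST+RS5 arrays and so adds no separate evidence. By measured signal all 9 passed 1.2-fold upwards, against 1.84% of all probes, with a median of 1.15 and a range of 0.74 (Cyp1a2) to 2.18 (Cyp2a5). Cyp1a2, Cyp2f2 and Ces3 were undetected on both CON arrays and on CRST+RS5 replicate 1. Against the lowest signal detected on the CON arrays, their folds were 1.18-fold, 2.66-fold and 2.95-fold. These too are not lower limits, and that of Cyp1a2 misses the criterion. By measured signal the arrays did not overlap for Cyp1a2, Gstm2 and Inmt, 3 of 9 against 16.9% of all probes. For Cyp1a2 this is an order among mostly undetected readings. With replicate 1 alone standing for CRST+RS5, the median was 0.02. Gstm2, at 0.48, was then the 1 enzyme of 9 past 1.2-fold upwards (2.49% of all probes). Cyp2a5 (-0.37) and Cyp2g1 (-0.33) passed it downwards by measured signal (2 of 9, against 1.88%), but both were undetected on that array and their CON means of 7.67 and 7.48 did not exceed its lowest detected signal of 7.70, so no fold can be given. Side by side, Gstm2 stood at -0.30 for CRST against CON, 1.07 for CRST+RS5 against CRST and 0.77 for CRST+RS5 against CON, and Cyp2a5 stood at -0.20, 2.38 and 2.18.

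A wider list of 134 other genes for foreign compound metabolism had 21 named members, which the study chose on these same arrays, so their direction is not independent evidence. Against CRST, all 21 exceeded 1.2-fold upwards in CRST+RS5 with a median of 0.45, and 7 of 21 were so, with a median of 0.19, on replicate 1 alone. CRST+RS5 replicate 2 was the highest array for 20 of the 21, with 20 detected there and 10 to 12 on each of the other arrays. Adh1, an alcohol dehydrogenase of retinol and ethanol, read 7.15 to 7.34 on 5 arrays and 9.71 on CRST+RS5 replicate 2, where alone it was detected. Cyp2b19, the neighbour of Cyp2g1 on chromosome 7 and known from skin keratinocytes, read 6.93 to 7.12 and 9.51 in the same way. Pon1, a paraoxonase that hydrolyses organophosphates, read 7.07 to 7.27 and 8.73. Ugt1a10, a glucuronosyltransferase that shares exons with the other Ugt1a genes, read 7.53 to 7.76 and 9.87.

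Not all of that list followed the 1 array alone. Fmo1, a flavin monooxygenase, read 9.05 and 9.30 on CON, 8.93 and 9.14 on CRST, and 9.55 and 10.01 on CRST+RS5, so that both CRST+RS5 arrays were above the rest, as for Gstm2. Mgst1, a microsomal glutathione transferase, instead stood apart on CRST+RS5 replicate 2 alone, at 9.85 against 8.42 to 8.82 on the other 5 arrays. Of the arrays other than CRST+RS5 replicate 2, CRST+RS5 replicate 1 was the highest for 10 of these 21 genes and CON replicate 2 for 3.

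Among all other named probes, the 8 with profiles nearest to the mean profile of the 9 enzymes were found by the root mean square distance between log2 profiles over the 6 arrays, each centred on its CON mean. In rising order of distance they were Adh1 (0.15), BC048679 (0.16), Wfdc2 (0.17), Apoc1 (0.19), Cyp2b19 (0.20), Ugt1a10 (0.24), Bglap2 (0.24) and Cartpt (0.30). Of these, Adh1, Cyp2b19 and Ugt1a10 are enzymes of the wider list. Wfdc2 is a secreted protease inhibitor-like protein of airway and other epithelia, Apoc1 an apolipoprotein, Bglap2 an osteocalcin and Cartpt a neuropeptide precursor, so genes with different roles stood beside the enzymes. The distance of the enzymes themselves from their mean ran from 0.07 for Ugt2a2 and 0.14 for Cbr2 to 0.65 for Gstm2 and 0.91 for Cyp2a5, the latter for its height on CRST+RS5 replicate 2.

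Markers of other tissues moved with the enzymes on that array, and their part in the result was not tested. Of 54 listed genes of secretory olfactory and airway epithelium, 23 were named, and 22 of the 23 were highest on CRST+RS5 replicate 2, with 22 detected there and 4 to 6 on each other array. Over all probes, 14.8% were highest on that array and 51.4% were detected there, and 34.3% of the named probes were highest there. These 23 genes were named by the study on the same arrays, so nothing is read from the counts. The log2 of their summed signal was 12.13 and 12.27 on CON, 12.10 and 12.17 on CRST, and 12.31 and 14.90 on CRST+RS5. Vmo1, a secreted protein, read 7.44 to 7.89 on 5 arrays and 13.38 on that array. Bpifb4, a secreted member of the BPI fold family, read 7.70 to 7.89 and 12.83, and its relative Bpil3 read 6.94 to 7.13 and 10.91. In CRST+RS5 against CRST 22 of the 23 were higher by at least 1.2-fold with a median of 0.62, and on replicate 1 alone 4 of 23 with a median of 0.02. Over all probes the shares were 2.04% and 2.93%, and nothing is read from these counts either.

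Markers of olfactory sensory neurons could be read less well, since most of those named were detected on no array. Of the 17 named, most of them odorant receptors, 5 were detected on CRST+RS5 replicate 2 and 1 or 2 on each other array, and the log2 of their summed signal was 11.34 to 11.49 on 5 arrays and 11.80 on that one. S100a5, a calcium-binding protein of these neurons, read 7.48 and 8.05 on CON, 7.29 and 7.27 on CRST, and 7.59 and 9.71 on CRST+RS5. It was detected on CON replicate 2 and CRST+RS5 replicate 2, the same pair as Cyp2a5, Cyp2g1 and Ugt2a2. By measured signal, undetected readings included, CRST+RS5 passed 1.2-fold over CRST upwards for 8 of the 17 and downwards for 3, with a median of 0.25. On replicate 1 alone the counts were 6 and 2, with a median of 0.13. Many of these were differences between undetected readings, so no direction is read for the list. The olfactory marker protein gene Omp was not among the named probes and was not analysed here.

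Meningeal fibroblast markers were high on both CRST+RS5 arrays, as Gstm2 was. Their median was 0.53 and 0.58 above the CON mean on CRST+RS5 replicates 1 and 2, where Gstm2 stood at 0.48 and 1.06 and Cyp2a5 at -0.37 and 4.73. The 8 enzymes other than Gstm2 lay between -0.37 and 0.22 on replicate 1. Of the 32 named, 32 were at least 1.2-fold higher in CRST+RS5 than in CRST (median 0.75) and 29 on replicate 1 alone (median 0.72). Over all probes the shares were 2.04% and 2.93%. These genes were named by the study on the same arrays, so nothing is read from their counts. The log2 of their summed signal was 14.55 and 15.01 on CON, 14.25 and 14.67 on CRST, and 15.42 and 15.47 on CRST+RS5. CRST replicate 1, the lowest array for Gstm2, was thus the lowest here too. Ptgds, a prostaglandin synthase of the leptomeninges, read 12.04 and 12.56 on CON, 11.32 and 12.04 on CRST, and 13.23 and 13.29 on CRST+RS5. Whether these cells bear on Gstm2 was not tested.

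The remaining lists moved less or in mixed directions. In CRST+RS5 against CRST, border macrophage markers were higher by at least 1.2-fold in 9 of 10 cases and lower in 1 (median 0.51), and in 8 and 1 on replicate 1 alone (median 0.48). Of 25 listed hepatocyte markers and 16 of the choroid plexus, 6 each were named. Hepatocyte markers were higher in 4 of 6 and lower in 1 (median 0.37), and choroid plexus markers in 5 and 1 of 6 (median 0.43), while on replicate 1 alone both lists had 1 higher and 1 lower. Ttr is in both lists and was the lower gene of each. Azgp1 of the hepatocyte list and Wfdc2 and Krt8 of the choroid plexus list are also in the secretory epithelium list. Olfactory bulb neuron markers were higher in 6 of 9 and lower in 2 (median 0.40), with 5 and 2 on replicate 1 alone (median 0.28). Cortical neuron markers were higher in 5 of 12 and lower in 6, with a median of -0.02. Tbr1 is in both the olfactory bulb and the cortical neuron lists and was among the lower genes of each. The named members of all these lists were chosen by the study on the same arrays.

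**Figure D4:**
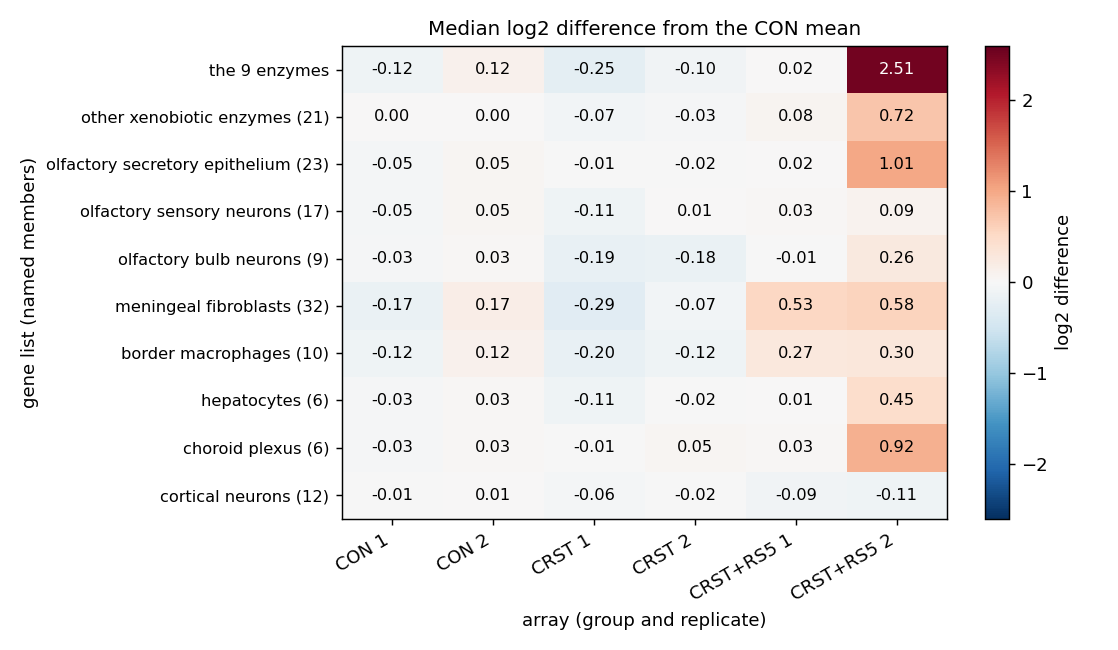
Median log2 difference from the CON mean on each array (columns) for the 9 enzymes and for the named members of each gene list (rows, number of genes in brackets), with the value in each cell and red for higher, blue for lower. The 9 enzymes read 2.51 on CRST+RS5 replicate 2 and between -0.25 and 0.12 elsewhere, the secretory epithelium list 1.01 on that array, and the meningeal list 0.53 and 0.58 on both CRST+RS5 arrays.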

How the data were processed

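RNA from pooled PL tissue was hybridised to mouse Ref-8 bead arrays, 6 in all with 2 per group. Per the study's methods, GenomeStudio was used for signal extraction. The deposited values are mean bead intensities on a linear scale, and each carries a deposited detection p-value. It is not stated whether background was subtracted. A log2 table after quantile normalization was deposited by the authors as well and served as an alternative.

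The deposited intensities were log2 transformed, then quantile normalized across all 6 arrays (limma 3.58.1 in R 4.3.3), with no background correction, nothing added before log2 and no detection filter. The largest difference from the deposited log2 values was 0.105. Samples were grouped by their labels. Groups were compared by differences of mean log2 values and counted at the study's criterion of 1.2-fold, and no member was tested, because these arrays chose the members. The study describes the 2 pools of a group as coming from independent sets of mice, but no replicate number is tied to a set. For a probe with a detection p-value of 0.05 or more on both arrays of a group, the fold is set against a floor. Per array, this floor is the higher of its own signal and the lowest detected signal. The other group's mean keeps its measured signals, so the fold is not a lower limit where 1 of its arrays was undetected. The difference calculation was checked on simulated data with an SD of 0.05 between arrays. The SD of the CRST+RS5 pairs ran from 0.41 to 3.61 for the 9 enzymes, so the check covers the arithmetic only.

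Gene names come from the study's lists of named probes and RefSeq (GRCm38.p6), and other probes are unnamed here. The text names the 9 members, the 8 named probes nearest to their mean profile, the 6 other enzymes of foreign compound metabolism with the largest absolute difference of CRST+RS5 from CRST, and the 3 such genes of each other list, some of them with values only in the other observations. The members and lists were chosen with earlier results of these data known. Alternatives were a common median for all arrays, limma's neqc background correction, 50 added before log2, the deposited log2 table, the log2 ratio of mean linear signals, only those members that both arrays of some group detected, a detection p-value under 0.01, and each array left out in turn.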

Additional observations from a re-analysis of the deposited data

How the results depend on the processing

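The 9 enzymes kept their highest value on CRST+RS5 replicate 2 under all 4 other normalizations. By measured signal, 5 of 9 were second on CON replicate 2 under each. Of 252 values for single enzymes, 13 changed sign, all with 1 array left out. Of these, 7 were differences of CRST from CON that lay between -0.20 and 0.01 with all arrays and between -0.20 and 0.15 without 1 of them. The other 6 came without CRST+RS5 replicate 2 and were -0.17 for Cyp2a5 and -0.01 for Cyp2g1 against CRST, and -0.37 for Cyp2a5, -0.33 for Cyp2g1, -0.12 for Ces3 and -0.14 for Ugt2a2 against CON. The other end of these ranges, without CRST+RS5 replicate 1, was 4.93 and 2.84 against CRST, and 4.73, 2.51, 3.42 and 2.54 against CON in the same order. Cyp2a5, Cyp2g1, Ces3 and Ugt2a2 were undetected on CRST+RS5 replicate 1, so no direction is read from their negative values. With each array left out in turn, the median ranged from 0.10 to 2.76 for CRST+RS5 against CRST with 1 to 9 enzymes higher, from 0.02 to 2.51 for CRST+RS5 against CON with 1 to 9 higher and 0 to 2 lower, and from -0.30 to -0.02 for CRST against CON with 0 to 5 lower. The median for CRST+RS5 against CRST, 1.41 in the text, was 2.35 with neqc and 1.96 as a ratio of mean linear signals, which gives Cyp2a5 3.97 in place of 2.38, and against CON it was 1.87 and 1.67 in place of 1.15. The comparison of CRST with CON also moved with the background correction: its median was -0.40 with neqc, and the count lower by 1.2-fold, 2 in the text, became 6 with neqc, 1 with a common median, 1 with 50 added and 1 among the 3 enzymes detected on both arrays of a group. In that filter all 3 enzymes left were higher in CRST+RS5 than in CRST and than in CON, the smaller count coming from fewer enzymes. At a detection p-value under 0.01, 16 of 54 readings were detected in place of 25. No paired analysis was possible because no result comes from a test and the labels do not say that a replicate number marks a set. Signals near background left 6 of the enzymes on the CRST arrays with folds against the lowest detected signal only. The causes of these changes were not tested beyond what is stated.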

Other observations

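Genes of the choroid plexus and hepatocyte lists differed in their profiles. Ttr, the transthyretin of choroid plexus and liver, read 10.21 and 7.96 on CON, 9.08 and 11.16 on CRST, and 9.33 and 9.30 on CRST+RS5, highest on CRST replicate 2 and lowest on CON replicate 2. Aqp1, a water channel of the choroid plexus and other epithelia, read 7.30 to 7.55 on 5 arrays and 8.76 on CRST+RS5 replicate 2, where alone it was detected. Azgp1, a secreted zinc-binding glycoprotein, read 7.01 to 7.23 and 8.49 in the same way.

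Calb2, the calretinin of interneurons, read 10.92 and 11.01 on CON, 10.38 and 10.69 on CRST, and 11.11 and 11.68 on CRST+RS5. Pcdh21, a cadherin of mitral and tufted cells, read 9.27 and 9.14 on CON, 8.53 and 8.68 on CRST, and 9.04 and 10.03 on CRST+RS5. Both were lower on the CRST arrays than on the CON arrays. Slc17a6, a vesicular glutamate transporter, was highest on CRST replicate 2 at 11.22 and lowest on CRST+RS5 replicate 1 at 10.38. The macrophage and antigen presentation genes Cd74 (8.66 and 9.02) and H2-Ab1 (8.71 and 8.93) were higher on both CRST+RS5 arrays than on the other 4, where the highest readings were 8.49 and 8.50, and Dab2 read 9.32 and 9.26 against 8.55 to 8.90. Slc47a1 (10.74 and 10.51) and Ogn (9.78 and 9.80), both meningeal markers, were likewise highest on the CRST+RS5 arrays, followed by CON replicate 2 at 9.87 and 9.18. Tmem16b, a chloride channel of olfactory cilia, read 8.05 and 7.97 on CRST+RS5 and 7.27 to 7.50 elsewhere. Olfr1270 was detected on no array, at 6.80 to 7.30. Rxfp1, a relaxin receptor, read 7.49 and 7.68 on CRST+RS5 and 7.81 to 8.09 on the other arrays.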
